A study of Homo sapiens with 7 samples.

Results

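The histone cluster genes were taken as all genes whose symbol begins with HIST1H, HIST2H, HIST3H or HIST4H, the older names of the genes in the 4 human histone gene clusters. They numbered 37 of the 14535 genes in the deposited count table. By histone type, 6 encode H1, 11 encode H2A, 11 encode H2B, 5 encode H3 and 4 encode H4. The HIST1 cluster on chromosome 6 gave 26 of them, the HIST2 and HIST3 clusters on chromosome 1 gave 8 and 2, and chromosome 12 gave HIST4H4. HIST2H2BC is annotated as a pseudogene, and the other 36 code for protein.

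The study compared A549 cells, an epithelial line from a human lung adenocarcinoma, after either of 2 treatments used to bring on senescence. In the stretch group (4 libraries, replicates 4 to 7) the cells were stretched cyclically by 15% at 15 cycles per min for 24 h. In the doxorubicin group (3 libraries, replicates 1 to 3) they received doxorubicin, a drug that poisons topoisomerase II and breaks DNA, at 100 nM for 24 h. After 6 days the cells of both groups were stained for β-galactosidase, a senescence marker, and the sorted positive cells gave the RNA. No untreated or unsorted cells were analysed here, so a value higher after stretch cannot be told apart from a value lower after doxorubicin. All libraries are from a single cell line, and the labels do not say whether replicates were separate cultures. What the p-values measure is thus the spread among these libraries alone, and that spread may be technical. In such bulk RNA, fewer cells that transcribe a gene and less RNA per cell cannot be told apart.

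Core histones H2A, H2B, H3 and H4 form the protein spool around which DNA is wound, and the linker histone H1 binds where DNA enters and leaves it. The clustered genes are known as replication-dependent: they are transcribed mainly in S phase, under NPAT, and most lack introns. Their transcripts usually end in a short stem-loop in place of a poly(A) tail, which is bound by SLBP and leads to decay of the transcript when DNA synthesis stops. Longer polyadenylated transcripts from some of these genes have been described in cells that have left the cycle.

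The stem-loops of 5 genes are shown because 4 of these genes had groups of libraries that did not overlap, HIST1H4H has the H4 form, and HIST1H2BC and HIST1H2BF, whose differences have opposite signs, share theirs. Capitals mark the 16 bases of the stem-loop, with 5 bases on either side, 5′ to 3′ on the gene's strand, from GENCODE release 29 on GRCh38.
HIST1H2BC, chr6:26123467-26123492, minus strand: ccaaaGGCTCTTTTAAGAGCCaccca
HIST1H2BF, chr6:26199963-26199988, plus strand: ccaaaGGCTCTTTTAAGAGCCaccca
HIST2H2BE, chr1:149886183-149886208, minus strand: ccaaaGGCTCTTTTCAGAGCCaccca
HIST1H2AC, chr6:26124664-26124689, plus strand: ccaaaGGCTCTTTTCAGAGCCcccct
HIST1H4H, chr6:26285126-26285151, minus strand: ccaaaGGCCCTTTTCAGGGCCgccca

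The pattern searched was 16 bases long on the transcript strand, with GG at its start, CC at its end, T at positions 6 and 8, A at position 11 and any base elsewhere, starting within 150 bases after the stop codon. It was found in 19 members, of which 13 have an annotated transcript that runs over 100 bases past the loop. Among 47872 protein-coding transcripts of other genes with a window of that length, 0.900% held it. The loop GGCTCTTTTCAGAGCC was the form in 11 members and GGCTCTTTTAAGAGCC in 4, while all 3 H4 genes with a match had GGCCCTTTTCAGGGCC. For the rest no match was found, and 23 members in all have annotated bases after the stop codon. Whether the amplified stretch of each gene lies before or after its loop is not stated in the sources used here.

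The promoters of HIST1H2BC and HIST1H2BF are shown because both hold the octamer and CCAAT motifs and these genes encode the same protein. Printed are 200 bases ending at the start of the gene, from RefSeq on GRCh38.p14, with ATTTGCAT, CCAAT or their reverse complements in capitals.
HIST1H2BC (RefSeq name H2BC4), chr6:26123927-26124126, minus strand: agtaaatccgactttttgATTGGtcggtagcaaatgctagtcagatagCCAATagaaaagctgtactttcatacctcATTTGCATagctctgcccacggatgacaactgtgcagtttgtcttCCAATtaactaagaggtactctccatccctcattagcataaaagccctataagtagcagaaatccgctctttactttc
HIST1H2BF (RefSeq name H2BC7), chr6:26199316-26199515, plus strand: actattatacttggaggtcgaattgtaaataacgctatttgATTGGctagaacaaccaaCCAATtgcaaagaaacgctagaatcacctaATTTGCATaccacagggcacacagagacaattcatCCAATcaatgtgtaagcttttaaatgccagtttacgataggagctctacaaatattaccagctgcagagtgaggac

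Promoters of 33 members were matched, and the 250 bases before each start were searched on both strands for ATTTGCAT (the octamer bound by OCT1), CCAAT (bound by NF-Y) and TATAAA. The octamer stood in 14 of the 33, which were 7 of 10 H2A and 7 of 10 H2B genes and no H1, H3 or H4 gene, against 1.66% of all 27305 promoters. Some of these are neighbours transcribed away from each other, with starts 219 to 323 bases apart. Their searched windows overlap, so the same site can count for both genes. Such pairs with the octamer in both were HIST1H2BC and HIST1H2AC, HIST1H2AD and HIST1H2BF, HIST1H2BJ and HIST1H2AG, and HIST2H2BE and HIST2H2AC. CCAAT stood in 30 of the 33, against 33.0% of all promoters, and the 3 without it were the 3 H4 genes. TATAAA stood in 23 of the 33, against 11.1%. Matches overlapped in 2 members, HIST1H2AG and HIST1H2BJ. Each match is a description of these letters and not evidence that a factor was bound.

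The libraries differed in depth and quality along with treatment. Totals ran from 5636494 to 7419798 counts after stretch and from 2611766 to 4644650 after doxorubicin. Genes listed at 0 made up 4.17% to 4.88% of the table after stretch, and 10.9%, 21.4% and 5.10% in doxorubicin libraries 1, 2 and 3. EIF4A2 alone took 1.67% to 2.87% of the counts after stretch, and 16.1%, 30.6% and 10.8% in doxorubicin libraries 1, 2 and 3. These values move with the groups, and their part in the histone values was not tested. Of 12 A549 and epithelial markers 11 were tested, and their summed level was 7210.3 to 8185 CPM (counts scaled to a common library size with TMM factors) after stretch and 7705 to 11612 CPM after doxorubicin. In edgeR 2 of them passed: KRT18, a keratin, was lower after stretch (log2 fold change -2.20, adjusted p = 0.0199), and INSL4, a secreted peptide, was higher (2.20, adjusted p = 0.0336). Of 9 alveolar type II markers 6 were measured and 2 tested, neither of which passed, and their summed level was 16.5 to 30.6 CPM after stretch and 21.3 to 158 CPM after doxorubicin. The lipid transporter ABCA3 carried most of that sum, with 13.3 to 26.9 CPM after stretch and 39.6, 153 and 16.6 CPM in doxorubicin libraries 1 to 3 (log2 fold change -1.80), while LAMP3 had -0.54 and the surfactant genes SFTPB, SFTPC and SFTPD did not exceed 1.13 CPM. Of 12 fibroblast, endothelial and immune markers 6 were measured, and their summed level was 31.05 to 34.1 CPM after stretch and 63.4 to 133 CPM after doxorubicin. Among these, CD68, a lysosomal protein used as a macrophage marker, was lower after stretch (log2 fold change -2.02, adjusted p = 0.0158 by edgeR), and the part of these marker differences in the histone values was not tested.

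No histone cluster gene differed between stretch and doxorubicin at an adjusted p under 0.05 in edgeR's quasi-likelihood test, where 29 members had enough counts to be tested, and none passed in limma-voom. In the same test, 2.32% of all 11230 tested genes passed, 0.356% with higher and 1.97% with lower values after stretch. The lowest adjusted p of a member was 0.0604, for HIST1H2BC. DESeq2 called 1 member, HIST1H2BC, where 10% of all genes it tested passed, 3.09% with higher and 6.94% with lower values after stretch. At an unadjusted p under 0.05 there were 7 members, 4 with higher and 3 with lower values after stretch, while 23.2% of all tested genes met that mark. The median log2 fold change, stretch minus doxorubicin, was 0.01 over the 29 members and 0.02 over all tested genes. Of the members 15 lay above 0 and 14 below, with a range of -1.32 to 1.59, and 51.2% of all tested genes lay above 0.

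Individual members nevertheless separated the libraries in both directions. In 4 members every stretch library was higher than every doxorubicin library (HIST1H1E, HIST1H2AC, HIST1H2AM and HIST1H2BC), and in 4 others every stretch library was lower (HIST1H2BF, HIST2H2BE, HIST2H3D and HIST4H4). Over all tested genes, 11.5% had higher and 9.88% lower stretch libraries without overlap, so these counts are close to the background. The sign of 7 of these 8 was the same under all alternatives that tested them, while that of HIST2H2BE turned to 0.17 when libraries were scaled by their totals alone. That scaling shifts everything: the median of all tested genes became 0.71 and that of the histone members 0.68.

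**Figure D1:**
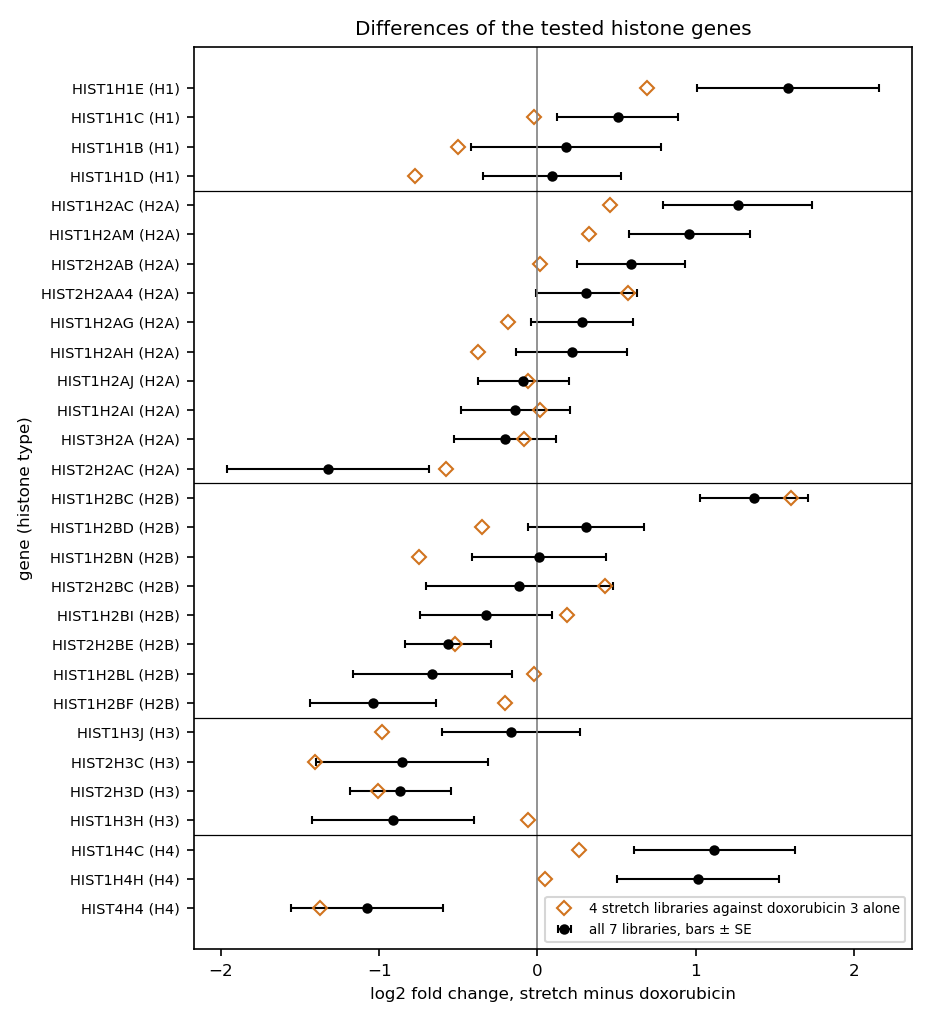
Log2 fold change, stretch minus doxorubicin, of the 29 tested histone genes by type. Filled points show all 7 libraries with bars of 1 SE, and open diamonds the 4 stretch libraries against doxorubicin library 3 alone. Filled points run from -1.32 to 1.59 on both sides of 0, all 4 H3 genes lie below 0, and HIST1H2BC lies at 1.37 with a diamond at 1.60. Scaling by library totals alone turns the signs of HIST1H2AI, HIST1H2AJ, HIST1H2BI, HIST1H2BL, HIST1H3J, HIST2H2BC, HIST2H2BE and HIST3H2A.

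The summed TMM-scaled level of each type overlapped between the groups. All 37 genes together had 4215, 3987, 4139 and 5027 CPM in stretch libraries 4 to 7, against 2954, 3472 and 4765 CPM in doxorubicin libraries 1 to 3. Doxorubicin libraries 1 and 2 were below every stretch library, and doxorubicin library 3 lay within their range. By type, H4 had the largest ratio of means, with 945 ± 223 CPM after stretch (SD, n = 4) and 439 ± 337 CPM after doxorubicin (SD, n = 3), a ratio of 2.15. H1 had 303 ± 49.0 CPM after stretch and 235 ± 169 CPM after doxorubicin, a ratio of 1.29. For H2A, H2B and H3 the ratios were 1.10, 0.934 and 0.865. A single gene carried most of the H4 and H3 sums. HIST1H4C held 81.7% to 90.4% of the H4 counts over the libraries, and HIST1H3J 87.6% to 95.7% of the H3 counts. An annotated HIST1H3J transcript also holds most of the HIST1H2AM sequence, so the H3 sum may include reads of that H2A gene. As a percent of all counts, without scaling factors, the ratios of H1, H2A, H2B, H3 and H4 were 1.77, 1.82, 1.53, 1.25 and 2.89, so that H2B and H3 turned direction, and every stretch library was above every doxorubicin library for H2A.

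**Figure D2:**
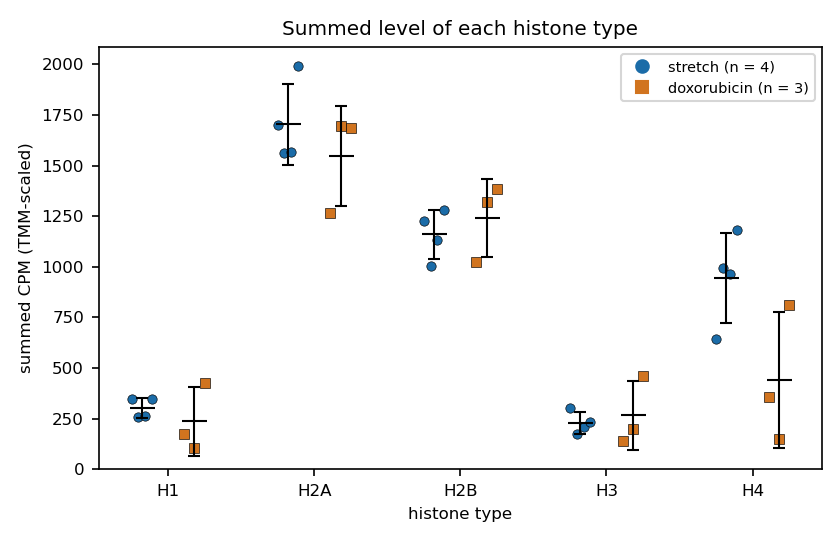
Summed TMM-scaled CPM of the genes of each histone type in stretch libraries (circles, n = 4) and doxorubicin libraries (squares, n = 3), with mean and SD. The groups overlap in every type, and the doxorubicin libraries are spread most widely in H4, from 151 to 810.2 CPM.

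H2B genes held both the closest approach to the threshold and its opposite. HIST1H2BC (chromosome 6, 26114873 to 26123926, minus strand), which encodes a canonical H2B, had 115, 130.5, 204 and 209 CPM in stretch libraries 4 to 7, against 57.1, 80.3 and 54.7 CPM in doxorubicin libraries 1 to 3. Every stretch library was above every doxorubicin library, and doxorubicin library 3 was the lowest of all 7. Its log2 fold change was 1.37 ± 0.34 (SE), or 2.58-fold, with an adjusted p of 0.0604. Its sign was the same in all 17 alternatives, from 1.23 to 2.17, and it passed in 3 of them: DESeq2 (adjusted p = 0.00313), edgeR without doxorubicin library 2 (0.0400) and edgeR without doxorubicin library 3 (0.0163). Without doxorubicin library 2, 2.47% of all tested genes passed, 0.444% with higher and 2.02% with lower values after stretch. Far more genes passed in the other settings, 10% in DESeq2 and 32.2% in edgeR without doxorubicin library 3. Over all its alternatives the adjusted p ran from 0.00313 to 0.217.

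HIST1H2BF (chromosome 6, 26199520 to 26200715, plus strand) had 123, 137, 147 and 152 CPM in stretch libraries 4 to 7, against 196, 506 and 163 CPM in doxorubicin libraries 1 to 3. All stretch libraries were lower, but the gap to doxorubicin library 3 was small and doxorubicin library 2 stood far above the rest. On the log2 scale the difference was -1.04 ± 0.40 (SE), with an adjusted p of 0.154 in edgeR, and against doxorubicin library 3 alone it was -0.20. HIST1H2BC, HIST1H2BF, HIST1H2BI and HIST1H2BG have reading frames for an identical protein. Summed over those 4 genes, the level was 263, 300.4, 391 and 409 CPM in stretch libraries 4 to 7, against 281, 669 and 251 CPM in doxorubicin libraries 1 to 3. The groups overlapped in this sum, so these 4 genes together did not separate as HIST1H2BC alone did. Any gene for that protein without a row in the count table is not in the sum.

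HIST2H2BE (chromosome 1, 149884459 to 149886652, minus strand) is an H2B gene known to give polyadenylated transcripts as well. It had 231, 207, 214 and 276 CPM in stretch libraries 4 to 7, against 361, 334 and 336 CPM in doxorubicin libraries 1 to 3. The 3 doxorubicin libraries were tightly grouped and all above stretch. edgeR gave a log2 fold change of -0.57 ± 0.27 (SE), with an adjusted p of 0.238 in edgeR, and it was -0.52 against doxorubicin library 3 alone and 0.17 with library totals alone.

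As a share of all H2B counts, which needs no scaling between libraries, HIST1H2BC made up 14.2% ± 3.81 after stretch (SD, n = 4) and 5.21% ± 1.12 after doxorubicin (SD, n = 3), without overlap. HIST2H2BE made up 18.9% to 21.6% after stretch and 24.3% to 35.4% after doxorubicin, also without overlap. HIST1H2BF made up 12.1% ± 1.57 after stretch and 23.1% ± 13.7 after doxorubicin, and here the groups overlapped. Such shares sum to the whole, so a higher share of a gene lowers the others.

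The remaining tested H2B genes overlapped between groups. HIST1H2BD had 402 to 560.1 CPM after stretch and 297, 236 and 606 CPM in doxorubicin libraries 1 to 3. The log2 fold changes of HIST1H2BD, HIST1H2BN, HIST2H2BC, HIST1H2BI and HIST1H2BL were 0.31, 0.01, -0.12, -0.33 and -0.66, and each of these 5 turned sign under at least 1 alternative.

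**Figure D3:**
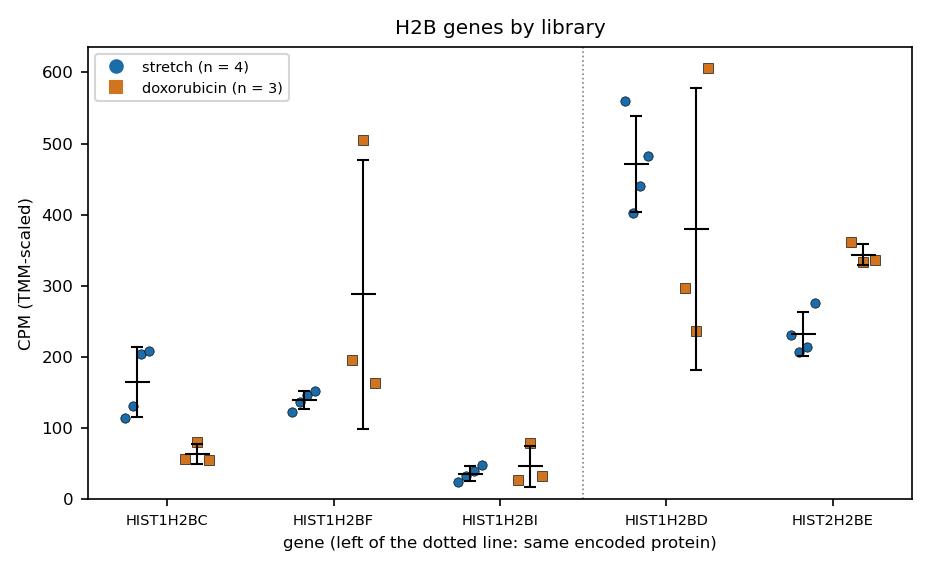
TMM-scaled CPM of 5 H2B genes in stretch libraries (circles, n = 4) and doxorubicin libraries (squares, n = 3), with mean and SD. HIST1H2BC is higher in every stretch library, HIST1H2BF and HIST2H2BE are lower in every stretch library (HIST2H2BE turns sign under scaling by library totals alone), and HIST1H2BI and HIST1H2BD overlap; the 3 genes left of the dotted line encode an identical protein.

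Among the H2A genes, 6 of 10 tested members had a positive and 4 a negative log2 fold change, with a median of 0.25. HIST1H2AC (chromosome 6, 26124145 to 26139116, plus strand), which lies head to head with HIST1H2BC, had 41.6, 31.3, 41.2 and 38.0 CPM in stretch libraries 4 to 7, against 12.3, 4.32 and 27.9 CPM in doxorubicin libraries 1 to 3. The groups did not overlap, although doxorubicin library 3 was close to the lowest stretch library. The log2 fold change was 1.27 ± 0.47 (SE), with an adjusted p of 0.147 in edgeR, and it was 0.46 against doxorubicin library 3 alone.

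HIST1H2AM (chromosome 6, 27892757 to 27893149, minus strand) had 143, 119, 146 and 159.9 CPM in stretch libraries 4 to 7, against 66.2, 36.2 and 114 CPM in doxorubicin libraries 1 to 3. Stretch was again higher throughout, by a narrow margin over doxorubicin library 3. Its log2 fold change was 0.96 ± 0.38 (SE), with an adjusted p of 0.166 in edgeR. HIST1H2AG, HIST1H2AI and HIST1H2AM have reading frames for an identical protein. Their sum was 748, 692, 647 and 879 CPM in stretch libraries 4 to 7, against 468, 822 and 743 CPM in doxorubicin libraries 1 to 3. In this sum the groups overlapped. An annotated transcript of the neighbouring HIST1H3J on the same strand holds 87.1% of the 31-base words of HIST1H2AM, so the assignment of reads between these genes is uncertain.

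HIST2H2AC (chromosome 1, 149886975 to 149887364, plus strand) had the most negative difference of all members. It had 90.1, 7.37, 33.9 and 44.99 CPM in stretch libraries 4 to 7, against 169, 94.9 and 66.4 CPM in doxorubicin libraries 1 to 3. Stretch library 4 overlapped the doxorubicin libraries and stretch library 5 was far below all others. On the log2 scale the difference was -1.32 ± 0.64 (SE), with an adjusted p of 0.240 in edgeR, and with a library left out it ran from -1.94 (without stretch library 4) to -0.86 (without doxorubicin library 1). Against doxorubicin library 3 alone it was -0.58. Of its 31-base words 50.6% also stand in other genes, 40.0% in HIST2H2AA3, so its separate level is uncertain.

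HIST2H2AA4, a near-identical copy of HIST2H2AA3, stood in 2 rows of the table, which were summed. The first row held 2209, 2456, 2735 and 3119 counts in stretch libraries 4 to 7, against 596, 211 and 1287 counts in doxorubicin libraries 1 to 3. The second row held 0, 1280, 0 and 983 counts in stretch libraries 4 to 7, against 0, 237 and 0 counts in doxorubicin libraries 1 to 3. The second row was thus at 0 in 4 libraries of both groups and carried many counts in the other 3. For the sum the log2 fold change was 0.31 ± 0.32 (SE).

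Of the other H2A genes, HIST2H2AB had 133, 119, 135 and 153 CPM in stretch libraries 4 to 7, against 74.9, 57.0 and 135 CPM in doxorubicin libraries 1 to 3, with a log2 fold change of 0.59. Doxorubicin library 3 overlapped stretch in this gene. HIST1H2AG and HIST1H2AH had log2 fold changes of 0.28 and 0.22, and HIST1H2AJ, HIST1H2AI and HIST3H2A had -0.09, -0.14 and -0.20. These 5 overlapped between groups and turned sign under at least 1 alternative. Of the 31-base words of HIST1H2AJ 84.6% also stand in HIST1H2AI, and 63.8% of those of HIST1H2AI in HIST1H2AJ, so their separate levels are uncertain.

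Linker histone genes all had positive log2 fold changes, with a median of 0.34 over 4 tested members, but those of HIST1H1B, HIST1H1C and HIST1H1D turned negative against doxorubicin library 3 alone, and those of HIST1H1B and HIST1H1D also with another library left out. HIST1H1E (chromosome 6, 26156354 to 26157107, plus strand), which encodes H1.4, had 67.2, 47.2, 41.7 and 70.2 CPM in stretch libraries 4 to 7, against 15.1, 2.59 and 35.3 CPM in doxorubicin libraries 1 to 3. Every stretch library was higher, and the value of doxorubicin library 2 rested on 3 counts. edgeR gave a log2 fold change of 1.59 ± 0.58 (SE), the largest of any member, with an adjusted p of 0.139 in edgeR, and it was 0.69 against doxorubicin library 3 alone.

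HIST1H1D, which encodes H1.3, had 214, 164, 173 and 224 CPM in stretch libraries 4 to 7, against 119, 88.9 and 335 CPM in doxorubicin libraries 1 to 3. Doxorubicin library 3 was above and libraries 1 and 2 were below all stretch libraries. The log2 fold change was 0.09 ± 0.44 (SE). HIST1H1C, which encodes H1.2, had 60.8, 45.4, 44.5 and 47.0 CPM in stretch libraries 4 to 7, against 36.5, 14.7 and 50.6 CPM in doxorubicin libraries 1 to 3, with a log2 fold change of 0.51. HIST1H1B, which encodes H1.5, did not exceed 4.72 CPM.

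In the HIST1H1E share of the H1 counts, doxorubicin library 3 lay with the other doxorubicin libraries. Such shares sum to the whole, and HIST1H1D in that library, at 335 CPM, was the highest of all 7, which lowers the HIST1H1E share. In CPM, HIST1H1E in that library (35.3) was near the lowest stretch library (41.7). HIST1H1E made up 19.4%, 18.2%, 15.9% and 20.3% of the counts of the 6 H1 genes in stretch libraries 4 to 7, against 8.66%, 2.44% and 8.28% in doxorubicin libraries 1 to 3. Exact 95% binomial intervals were 6.198% to 11.7%, 0.506% to 6.96% and 7.18% to 9.50% in those doxorubicin libraries, all under the lowest stretch interval, which began at 14.4%. HIST1H1D made up 61.7% to 65.7% after stretch and 68.3%, 83.7% and 78.6% in doxorubicin libraries 1 to 3. These shares did not overlap, but the interval of doxorubicin library 1, 63.8% to 72.7%, overlapped those of stretch libraries. The HIST1H1C shares, 13.6% to 17.6% after stretch and 11.9% to 21.0% after doxorubicin, overlapped. PCR reads without molecular identifiers are not independent molecules, so these intervals may be too narrow even for counting error. They also leave out the spread between libraries.

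**Figure D4:**
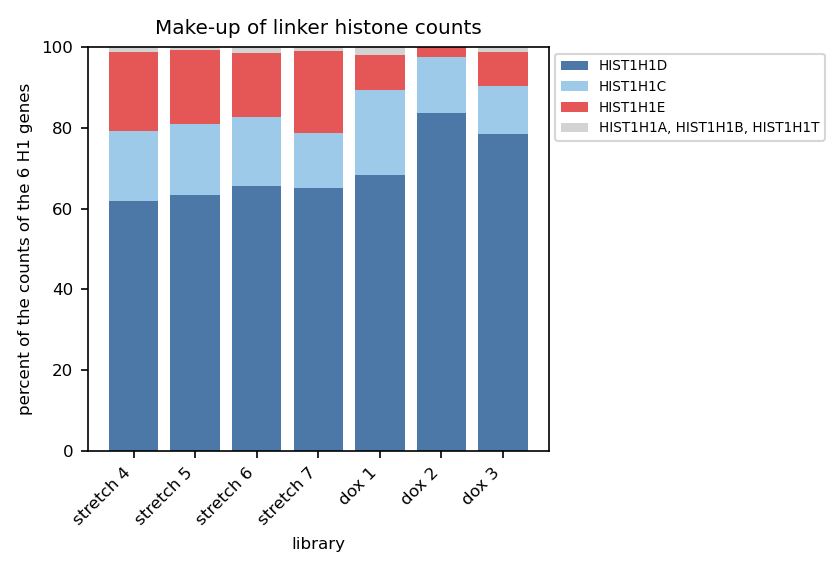
Percent of the counts of the 6 H1 genes taken by each gene in every stretch and doxorubicin (dox) library. The HIST1H1E part is 15.9% to 20.3% in the stretch libraries and 2.44% to 8.66% in the doxorubicin libraries.

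All 4 tested H3 genes had negative log2 fold changes, with a median of -0.86, but HIST1H3J turned positive under 3 alternatives (library totals alone, limma-voom, and without doxorubicin library 3). HIST2H3D (chromosome 1, 149813271 to 149813681, minus strand), which encodes H3.2, had 5.86, 6.94, 5.61 and 7.19 CPM in stretch libraries 4 to 7, against 9.91, 12.1 and 13.0 CPM in doxorubicin libraries 1 to 3. All stretch libraries were lower, at low levels. Its log2 fold change was -0.87 ± 0.32 (SE), with an adjusted p of 0.141 in edgeR, and it was -1.01 against doxorubicin library 3 alone. HIST2H3C, for the same protein, had 4.26, 1.71, 1.51 and 2.47 CPM in stretch libraries 4 to 7, against 1.98, 4.32 and 6.60 CPM in doxorubicin libraries 1 to 3. Both share most of their sequence with copies (86.4% of 31-base words for HIST2H3D and 100% for HIST2H3C), so their separate levels are uncertain. Their sum was 8.89 ± 1.33 CPM after stretch (SD, n = 4) and 15.97 ± 3.88 CPM after doxorubicin (SD, n = 3).

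HIST1H3J, which encodes H3.1, had 288, 161, 200.4 and 221 CPM in stretch libraries 4 to 7, against 121, 175 and 434 CPM in doxorubicin libraries 1 to 3. Doxorubicin library 1 was below, library 3 above and library 2 within the stretch range. On the log2 scale the difference was -0.17 ± 0.43 (SE). Because an annotated HIST1H3J transcript holds most 31-base words of HIST1H2AM, the HIST1H3J level may include reads of that gene and is uncertain too. HIST1H3H, also for H3.1, did not exceed 6.90 CPM and had a log2 fold change of -0.91 ± 0.51 (SE).

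The H4 genes, which all encode an identical protein, did not share a direction. HIST1H4C (chromosome 6, 26103876 to 26104310, plus strand) had 525, 897, 864 and 1066 CPM in stretch libraries 4 to 7, against 318, 133 and 705 CPM in doxorubicin libraries 1 to 3. Doxorubicin libraries 1 and 2 were below all stretch libraries, and library 3 was above the lowest of them. edgeR gave a log2 fold change of 1.12 ± 0.51 (SE), with an adjusted p of 0.219 in edgeR, and it was 0.26 against doxorubicin library 3 alone. HIST1H4H had 109, 93.9, 101 and 112 CPM in stretch libraries 4 to 7, against 33.3, 15.5 and 102 CPM in doxorubicin libraries 1 to 3, with a log2 fold change of 1.02, and 0.05 against doxorubicin library 3 alone. In this gene too, only doxorubicin libraries 1 and 2 stood below stretch.

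HIST4H4 (chromosome 12, 14767999 to 14771131, minus strand), the single gene of its cluster, had 2.13, 1.28, 0.971 and 1.40 CPM in stretch libraries 4 to 7, against 2.38, 2.59 and 3.77 CPM in doxorubicin libraries 1 to 3. Stretch was lower throughout, and the doxorubicin values rested on 6, 3 and 20 counts in libraries 1, 2 and 3. The log2 fold change was -1.08 ± 0.48 (SE), with an adjusted p of 0.209 in edgeR.

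The other 8 members (HIST1H1A, HIST1H1T, HIST1H2AD, HIST1H2BG, HIST1H2BJ, HIST2H2BF, HIST3H3 and HIST1H4J) had too few counts to be tested and did not exceed 6.00 CPM or 45 counts in any library.

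**Figure D5:**
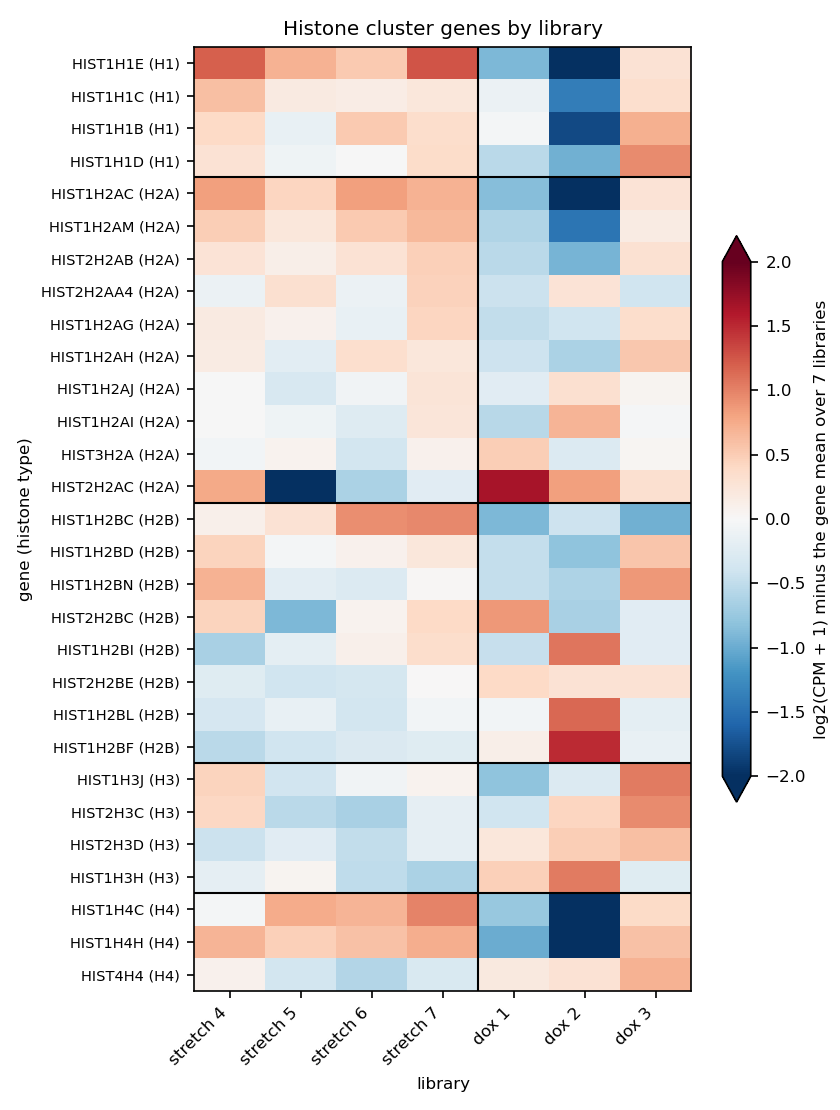
Log2(CPM + 1) of the 29 tested histone genes in each library, relative to the gene's mean over the 7 libraries, with stretch libraries left of the line and doxorubicin (dox) libraries right of it. Colours stop at 2 in either direction; doxorubicin library 2 holds deep blue cells (HIST1H1E, HIST1H2AC, HIST1H4C, HIST1H4H) as well as red ones (HIST1H2BF, HIST1H2BL), and HIST2H2AC is deep blue in stretch library 5.

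The doxorubicin libraries disagreed with each other more than the stretch libraries did. This held over all tested genes, where the correlation of log2 CPM between libraries was 0.939 to 0.978 within stretch and 0.754 to 0.884 within doxorubicin. Over the 22 tested members with a mean of at least 10 CPM, the coefficient of variation had a median of 15.6% after stretch and 52.8% after doxorubicin, and was smaller after stretch in 19. Against the range of the 4 stretch libraries, doxorubicin library 1 was below in 16 and above in 8 of the 29 tested members, library 2 below in 14 and above in 11, and library 3 below in 5 and above in 11. Neither these counts nor the coefficients of variation were made over all tested genes, so they are not read as particular to histone genes. In library 2, 12 members had under 20 counts.

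Without doxorubicin library 3, 10 of 30 tested members passed in edgeR, when 32.2% of all 11618 tested genes passed as well, 16% with higher and 16.2% with lower values after stretch. By direction, 9 members were higher and 1 was lower after stretch. Those higher after stretch were HIST1H1D, HIST1H1E, HIST1H2AC, HIST1H2AM, HIST1H2BC, HIST1H2BD, HIST1H4C, HIST1H4H and HIST2H2AB, and HIST1H2BF was lower. When doxorubicin library 3 alone stood for its group, no member passed, where 0.802% of 12344 genes did (0.081% with higher and 0.721% with lower values after stretch). At an unadjusted p under 0.05 there were 6 of the 29 members, while 16.8% of all genes met that mark. The median over the 29 members was -0.06. That fit assumes that the lone library would vary like the stretch libraries. By type those medians were -0.26 for H1, -0.02 for H2A, -0.11 for H2B, -0.99 for H3 and 0.05 for H4. Over all libraries the H1 and H4 medians were 0.34 and 1.02.

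Neighbouring genes transcribed away from each other were compared in pairs. In 6 pairs an H2A and an H2B member start within 1000 bases of each other, and in 4 of them both were tested. HIST1H2BC and HIST1H2AC start 219 bases apart, with the printed HIST1H2BC promoter between them, and had log2 fold changes of 1.37 and 1.27. HIST2H2BE and HIST2H2AC start 323 bases apart and had -0.57 and -1.32, where HIST2H2BE turned sign under scaling by library totals alone. HIST1H2BL and HIST1H2AI, 268 bases apart, had -0.66 and -0.14, and HIST2H2BC and HIST2H2AA4, 124 bases apart, had -0.12 and 0.31. Partners thus had the same sign in 3 of 4 pairs, of which only the first kept both signs under every alternative that tested them.

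Genes that act on or beside the histone clusters were examined as 5 lists, and no member of any passed in edgeR or limma-voom, while DESeq2 called 1 chaperone, 1 gene of histone gene transcription and 1 of histone mRNA processing. The medians given are those of edgeR with all libraries. Against doxorubicin library 3 alone they were -0.09 for replacement histones, -0.42 for histone gene transcription, -0.03 for processing and decay, -0.15 for chaperones and -0.33 for DNA replication, and with library totals alone all 5 were positive, from 0.36 to 1.25. Without doxorubicin library 3, when 32.2% of all tested genes passed, edgeR called 5 of 9 replacement histones, 3 of 8 genes of histone gene transcription, 6 of 22 of processing and decay, 4 of 20 chaperones and 9 of 34 DNA replication genes. In edgeR with all libraries, 23.2% of all tested genes had an unadjusted p under 0.05. Of the replacement histones, which are made also outside S phase, 9 were tested and 1 met that mark, with a median log2 fold change of 0.74. That gene was H2AFX, the H2A variant phosphorylated at DNA breaks. It had 22.0, 22.5, 18.6 and 31.8 CPM in stretch libraries 4 to 7, against 36.9, 50.9 and 39.1 CPM in doxorubicin libraries 1 to 3, and stretch was lower throughout (log2 fold change -0.82 ± 0.30 SE, adjusted p = 0.138). H2AFZ, H1FX, H1F0 and H3F3B, which encode H2A.Z, H1.10, H1.0 and H3.3, had log2 fold changes of 0.74, 1.13, 0.98 and 0.35. H2AFJ was too low to be tested.

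Of the genes for histone gene transcription 8 were tested, with a median of -0.31 and 2 at an unadjusted p under 0.05, against 23.2% of all tested genes. CCNE1, the cyclin whose kinase phosphorylates NPAT, had 8.26, 9.08, 8.09 and 9.66 CPM in stretch libraries 4 to 7, against 20.6, 18.1 and 17.7 CPM in doxorubicin libraries 1 to 3. The groups were far apart and each was narrow, and the log2 fold change was -1.10 ± 0.29 (SE) with an adjusted p of 0.0663. GON4L had -0.94 and NPAT itself -0.31, and the NPAT value turned sign with library totals alone.

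Among 22 tested genes of histone mRNA processing and decay the median was 0.11, with 4 at an unadjusted p under 0.05, against 23.2% of all tested genes. CTIF, a translation factor that works with SLBP, had the lowest adjusted p, 0.0837, at a log2 fold change of -1.15. ZCCHC6, which adds uridines to RNA ends, had 2.51 but did not exceed 1.13 CPM after doxorubicin. SLBP had 36.7 to 57.2 CPM after stretch and 52.7, 44.9 and 74.3 CPM in doxorubicin libraries 1 to 3, with a log2 fold change of -0.35 that turned sign with library totals alone.

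The 20 histone chaperones had a median of 0.17 and 1 gene at an unadjusted p under 0.05, and the lowest p-values were those of NAP1L4 (0.87, adjusted p = 0.131) and NAP1L1 (1.02, adjusted p = 0.229). The 34 DNA replication genes had a median of 0.07, with 2 at an unadjusted p under 0.05, RPA1 at -0.92 and CDT1 at -1.03. In both lists the share at that mark was below the 23.2% of all tested genes. PCNA, the replication clamp, had 292 to 398 CPM after stretch and 203, 98.4 and 383 CPM in doxorubicin libraries 1 to 3, so that library 3 again lay within stretch. CDKN1A, the p53 target that blocks S-phase kinases, stands outside these lists and had 270.1, 266, 218 and 220.4 CPM in stretch libraries 4 to 7, against 897, 917 and 291 CPM in doxorubicin libraries 1 to 3 (log2 fold change -1.52 ± 0.39 SE, adjusted p = 0.0650). Doxorubicin library 3 was the nearest to stretch for this gene as well.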

How the data were processed

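Expression was measured in 7 libraries of sorted A549 cells, 4 after stretch and 3 after doxorubicin, grouped by their titles. Per the labels' protocols, RNA was obtained by Trizol and precipitation, and sequencing used an Ion AmpliSeq expression kit, in which primers amplify a short stretch per gene. The authors deposited estimated counts per gene, not normalised; per the submitters' processing notes, fastp 0.20.1, Salmon 1.9 and GRCh38 were used, with no role given. The annotation release is not given in the sources used here. Salmon's estimates can be fractional, and the deposited values are whole numbers, taken as rounded. Salmon can split reads between near-identical histone genes, so levels of such genes are uncertain. Each of the 14647 rows has a count in at least 3 libraries. Symbols in several rows were summed, which left 14535 genes.

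The counts were tested with edgeR 4.0.16 in R 4.3.3: filterByExpr, TMM factors, robust quasi-likelihood F-test, stretch minus doxorubicin, Benjamini-Hochberg adjustment over 11230 genes, threshold 0.05. The standard error of a log2 fold change was its size over the root of the F statistic. Alternatives were other scalings (RLE, upper quartile, library totals, EIF4A2 and TAF1D left out), a filter at 10 CPM or none, limma-voom (limma 3.58.1), DESeq2 1.42.0, each library left out, doxorubicin library 3 alone, and, chosen after seeing the data, the first deposited HIST2H2AA4 row alone. The test was tried on simulated data with known changes. It recovered 2.04% of the 49 genes whose level had been changed 2-fold. Where the change was 4-fold, 75% of the 48 genes were recovered. The largest difference of a tested member was 3.00-fold, for HIST1H1E, so differences of the members' size could be missed. All 21 pairs of libraries differed beyond sampling noise (lowest chi-square per degree of freedom 8.02).

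The members and gene lists were chosen with earlier results of these data known. All tested members are named, and of each other list the genes past the threshold or, with none, the 2 with the lowest unadjusted p, besides SLBP, NPAT, H2AFZ, H2AFX, H2AFJ, H1F0, H3F3B, PCNA and CDKN1A; CASP8AP2 was not analysed here. Sequence sharing was counted in 31-base words of GENCODE release 29 transcripts, with Python 3.11.15.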

Additional observations from a re-analysis of the deposited data

Results flagged for a closer look

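HIST1H1C was set apart by 1 sample far from the others of its group. It had 60.8 CPM in stretch library 4, while the nearest other stretch library had 47.0 CPM. The gap was 0.842 of the whole range of the 4 stretch libraries, above Dixon's 95% critical value for 4 samples. Among the 35 sets of stretch values examined this way (29 tested genes and 6 sums) it was 1 exception, and by chance about 1 in 20 sets would exceed that value.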

How the results depend on the processing

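Over 17 alternatives the 29 tested histone genes gave 483 values. Of these 438 kept their direction and their side of the threshold, 33 turned sign and 12 newly passed, and 14 genes kept their sign throughout. The number of members that passed was 0 with all libraries, 1 in DESeq2, and 0 to 10 with a library left out: 1 without doxorubicin library 2 and 10 without doxorubicin library 3. Their median log2 fold change was 0.01, became 0.68 with library totals alone (0.71 over all genes), and ran from -0.093 to 0.59 with a library left out. The ratio of summed levels was 1.16, became 1.83 with library totals alone, and ran from 1.06 to 1.38 with a library left out. Of all tested genes, 261 passed with all libraries, against 13 with library totals alone, 143 at a mean of at least 10 CPM, 1315 in DESeq2, 12 to 3736 with a library left out, and 99 with doxorubicin library 3 alone.

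Signs turned as follows, and the cause was not tested. With library totals alone, HIST1H2AI became 0.71, HIST1H2AJ 0.68, HIST1H2BI 0.59, HIST1H2BL 0.16, HIST1H3J 0.34, HIST2H2BC 0.62, HIST2H2BE 0.17, HIST3H2A 0.50, SLBP 0.28 and NPAT 0.33. HIST1H2AJ became 0.0069 with no filter, and HIST1H3J 0.022 with limma-voom. With doxorubicin library 3 alone, HIST1H1B became -0.50, HIST1H1C -0.019, HIST1H1D -0.77, HIST1H2AG -0.18, HIST1H2AH -0.38, HIST1H2AI 0.015, HIST1H2BD -0.35, HIST1H2BI 0.19, HIST1H2BN -0.75, HIST2H2BC 0.43, H3F3B -0.090 and PCNA -0.15. With a library left out, ranges crossing 0 were -0.17 to 1.12 for HIST1H1B, -0.23 to 0.92 for HIST1H1D, -0.38 to 0.25 for HIST1H2AI, -0.20 to 0.061 for HIST1H2AJ, -0.59 to 0.29 for HIST1H2BI, -0.25 to 0.70 for HIST1H2BN, -0.40 to 0.58 for HIST2H2BC, -0.48 to 0.59 for HIST1H3J and -0.34 to 0.045 for HIST3H2A.

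No paired analysis was possible because the groups share no replicate numbers. Depth limits the low members: in doxorubicin library 2, 12 of 29 had under 20 counts. A p above the threshold does not show that a gene was alike in both groups. In the simulated data the test missed most genes changed 2-fold, with 2.04% recovered.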
